A study of Mus musculus with 3 samples.

Results

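Transforming growth factor beta (Tgf-beta) signalling in the aged mouse hippocampus was described through 10 genes: the ligands Tgfb1, Tgfb2 and Tgfb3, the receptors Tgfbr1 and Tgfbr2, the endothelial receptor partners Eng and Acvrl1, and the intracellular mediators Smad3, Smad6 and Smad7. They were taken by symbol from the 31053 genes of the count tables, and all 10 were present in each of the 3 tables. Their RNA was followed over 7 cell classes, namely microglia, border macrophages, endothelial cells, pericytes, astrocytes, ependymal cells and oligodendrocyte precursor cells (OPC).

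Tgf-beta ligands are secreted in a latent form, bound to a propeptide and to proteins of the matrix or the cell surface, and have to be released before they can act. The free ligand binds the type II receptor Tgfbr2, which brings in and phosphorylates a type I receptor, usually Tgfbr1, and this phosphorylates Smad2 and Smad3, which enter the nucleus and change transcription. Endothelial cells also carry Acvrl1 (ALK1), a type I receptor that serves BMP9 and BMP10 as well as Tgf-beta and signals to Smad1, Smad5 and Smad9, and endoglin (Eng), its accessory receptor. Smad6 and Smad7 are inhibitory Smads that the pathway itself induces. In the brain, microglia depend on Tgf-beta for their identity, and loss of ENG or ACVRL1 in people causes hereditary haemorrhagic telangiectasia, a disease of malformed vessels.

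The hippocampus of wild-type C57BL/6 mice labelled 2-year-old was dissociated with papain (about 20 units/ml) and depleted of myelin with beads, and 3 libraries were made with Chromium 3′ v3.1 chemistry at a target of 10000 cells. All 3 libraries belong to 1 group, so no age, genotype or treatment was compared, and every comparison below is between cell classes of the same libraries. The title of replicate 3 carries 25 months although its age label equals the others. No label says which animals a library holds, so p-values measure only how class differences vary between these libraries, which may be technical. In the fit of the classes this spread is shared by all of them, also by those with fewer libraries.

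After filtering, 12115 cells were kept, 6240, 945 and 4930 in replicates 1, 2 and 3, from libraries of 45716237, 7185668 and 40377042 UMIs (unique molecular identifiers, counted RNA molecules). Of these, 10605 fell into the 7 classes by detection of at least 3 of 10 markers, and 610, 158 and 581 of replicates 1 to 3 were left unassigned. An unassigned cell either had too few markers of every list or had too many markers of another list beside its best one. The classes held 1827 microglia, 127 border macrophages, 4834 endothelial cells, 173 pericytes, 2638 astrocytes, 699 ependymal cells and 307 OPC. Border macrophages, pericytes and OPC of replicate 2 fell under 20 cells and were left out of levels and tests, so these classes rest on 2 libraries. Median depth per cell ran from 2401 UMIs in pericytes to 7350 in microglia. The libraries shared 3, 12 and 2 cell barcodes in pairs, and a beta-globin UMI, which red cells shed, was found in 39.4% to 88.4% of kept cells.

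Each class carried its own 10 markers, none of them at 0 in it. Summed over the 10 markers, border macrophages held the microglial list at 16.5% of its microglial level (967 to 1532 CPM, with Slc2a5 at 0). Pericytes held the endothelial list at 3.04% of its endothelial level (505 to 702 CPM, with Cdh5 at 0) and the astrocyte list at 3.48%. Pericytes also held the OPC list at 6.44% (with 6 of 10 genes at 0, Pdgfra and Sox10 among them) and 374 to 499.7 CPM of the fibroblast list (with Lum, Col1a1, Dpt and Mmp2 at 0). Ependymal cells held the astrocyte list at 6.35% and 924 to 1118 CPM of the choroid plexus list. Levels of the 10 genes are given as CPM, UMIs of the gene per 1000000 UMIs summed over a class in a library, with intervals in the plots that cover counting error only. CPM of a 3′ count can be set side by side between classes for 1 gene. Between genes they also carry differences in capture, so no gene was ranked against another.

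Classes were compared on summed UMIs with edgeR's quasi-likelihood test over 13207 genes, each class against the mean of the log2 levels of the other 6, with library as a blocking term and p-values adjusted by Benjamini-Hochberg, called at 0.05. The TMM scaling of that fit moved every gene's log2 change by the same amount against plain CPM, from -0.49 in OPC to 0.69 in microglia. Medians over all genes tested are given beside the members' values for this reason. A called member kept its direction under both other scalings, edgeR's RLE and DESeq2's size factors. A mean of logs is a geometric mean, so a class can be called higher and still lie below the plain mean CPM of the other 6 when 1 of these holds most of the RNA. This was so for 7 calls of members, named below with both CPM values.

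Tgfb1 (ENSMUSG00000002603.15, chr7:25687002-25705077 on the plus strand of GRCm38, protein coding) encodes the main Tgf-beta of blood and immune cells. In microglia its level was 266, 305 and 344 CPM in replicates 1, 2 and 3. Border macrophages held 212 and 146 CPM in replicates 1 and 3, pericytes 121 and 144 CPM, and endothelial cells 117, 126 and 97.3 CPM in replicates 1 to 3. Every library of these 4 classes lay above every library of astrocytes, ependymal cells and OPC, which ranged from 0 to 5.98 CPM. Microglia did not overlap with border macrophages, while pericytes and endothelial cells overlapped.

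Against the mean of the other classes, Tgfb1 was higher in microglia (log2 change 4.76, SE 0.18, edgeR adjusted p = 9.53e-19), border macrophages (3.46, SE 0.27, edgeR adjusted p = 3.83e-11), endothelial cells (2.59, SE 0.20, edgeR adjusted p = 1.31e-11) and pericytes (2.26, SE 0.33, edgeR adjusted p = 8.01e-06). It was lower in astrocytes, ependymal cells and OPC. Without replicate 3 the first 2 of these calls were lost, at log2 changes of -2.70 and -3.25. The OPC profile left in that fit, of replicate 1, held no Tgfb1 UMI. The part of this empty class in the lost calls was not tested. At least 1 Tgfb1 UMI was seen in 76.1%, 75.5% and 76.1% of microglia, against 0% and 1.80% of OPC. When every cell was thinned to 1000 UMIs, which left out 73 microglia and 4 OPC, the share was 23.8%, 24.7% and 25.7% of microglia and 0% in both OPC libraries. Median depth was 7350 UMIs in microglia and 4353 in OPC.

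Tgfb2 (ENSMUSG00000039239.14, chr1:186622792-186705989, minus strand), a ligand better known from neural, heart and eye development, had another distribution. Its highest levels were in endothelial cells, at 171, 148 and 163 CPM in replicates 1 to 3. Ependymal cells held 80.7, 53.8 and 74.5 CPM, astrocytes 61.5, 44.1 and 52.9 CPM, OPC 47.9 and 42.8 CPM and pericytes 57.9 and 31.9 CPM. These 4 classes overlapped with their neighbours in the order of levels and lay below every endothelial library. Microglia held 3.96, 3.52 and 4.10 CPM, below every library of the other classes.

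Tgfb2 was higher in endothelial cells (log2 change 2.87, SE 0.14, edgeR adjusted p = 2.54e-16), ependymal cells (1.21, SE 0.17, edgeR adjusted p = 8.00e-07) and astrocytes (0.78, SE 0.16; 52.9 CPM where the plain mean of the others was 56.4), and lower in microglia (-2.90, SE 0.24, edgeR adjusted p = 6.24e-11) and border macrophages (-1.86, SE 0.42), the last lost without replicate 1 (edgeR adjusted p = 0.576). Tgfb1 and Tgfb2 were thus both called higher in endothelial cells, and were called in opposite directions, against the mean of logs, in microglia, border macrophages, astrocytes and ependymal cells.

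Tgfb3 (ENSMUSG00000021253.7, chr12:86056745-86079041, minus strand), the third Tgf-beta ligand, was rare, with 126 UMIs in all 7 classes together against 8876 for Tgfb1 and 7639 for Tgfb2. Ependymal cells held 7.68, 11.95 and 11.7 CPM and OPC 8.80 and 6.48 CPM. Pericytes held 26.3 and 5.32 CPM, which is 5 UMIs and 1 UMI. Pericytes also held smooth muscle markers at 526 to 760 CPM, with Cnn1, Pln and Actg2 at 0. Endothelial cells held more of this list, 804 to 977 CPM, and ependymal cells 657 to 894 CPM. Cells with smooth muscle markers held Tgfb3 at 112 CPM, and the part of their RNA in the pericyte value was not tested. Endothelial cells held 4, 2 and 0 UMIs of Tgfb3 in replicates 1, 2 and 3, so its level there was at most 0.468 CPM. It was called lower in microglia and in endothelial cells. The latter call was lost without replicate 2, at a log2 change of -4.15. Microglia held no Tgfb3 UMI in the libraries left in that fit, and the part of this was not tested. The only higher call was in ependymal cells (log2 change 2.42, SE 0.53, edgeR adjusted p = 0.000346), and it was lost without replicate 3 (1.67, edgeR adjusted p = 0.0683). The pericyte value (2.81, SE 0.99, edgeR adjusted p = 0.0525) did not pass.

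**Figure D1:**
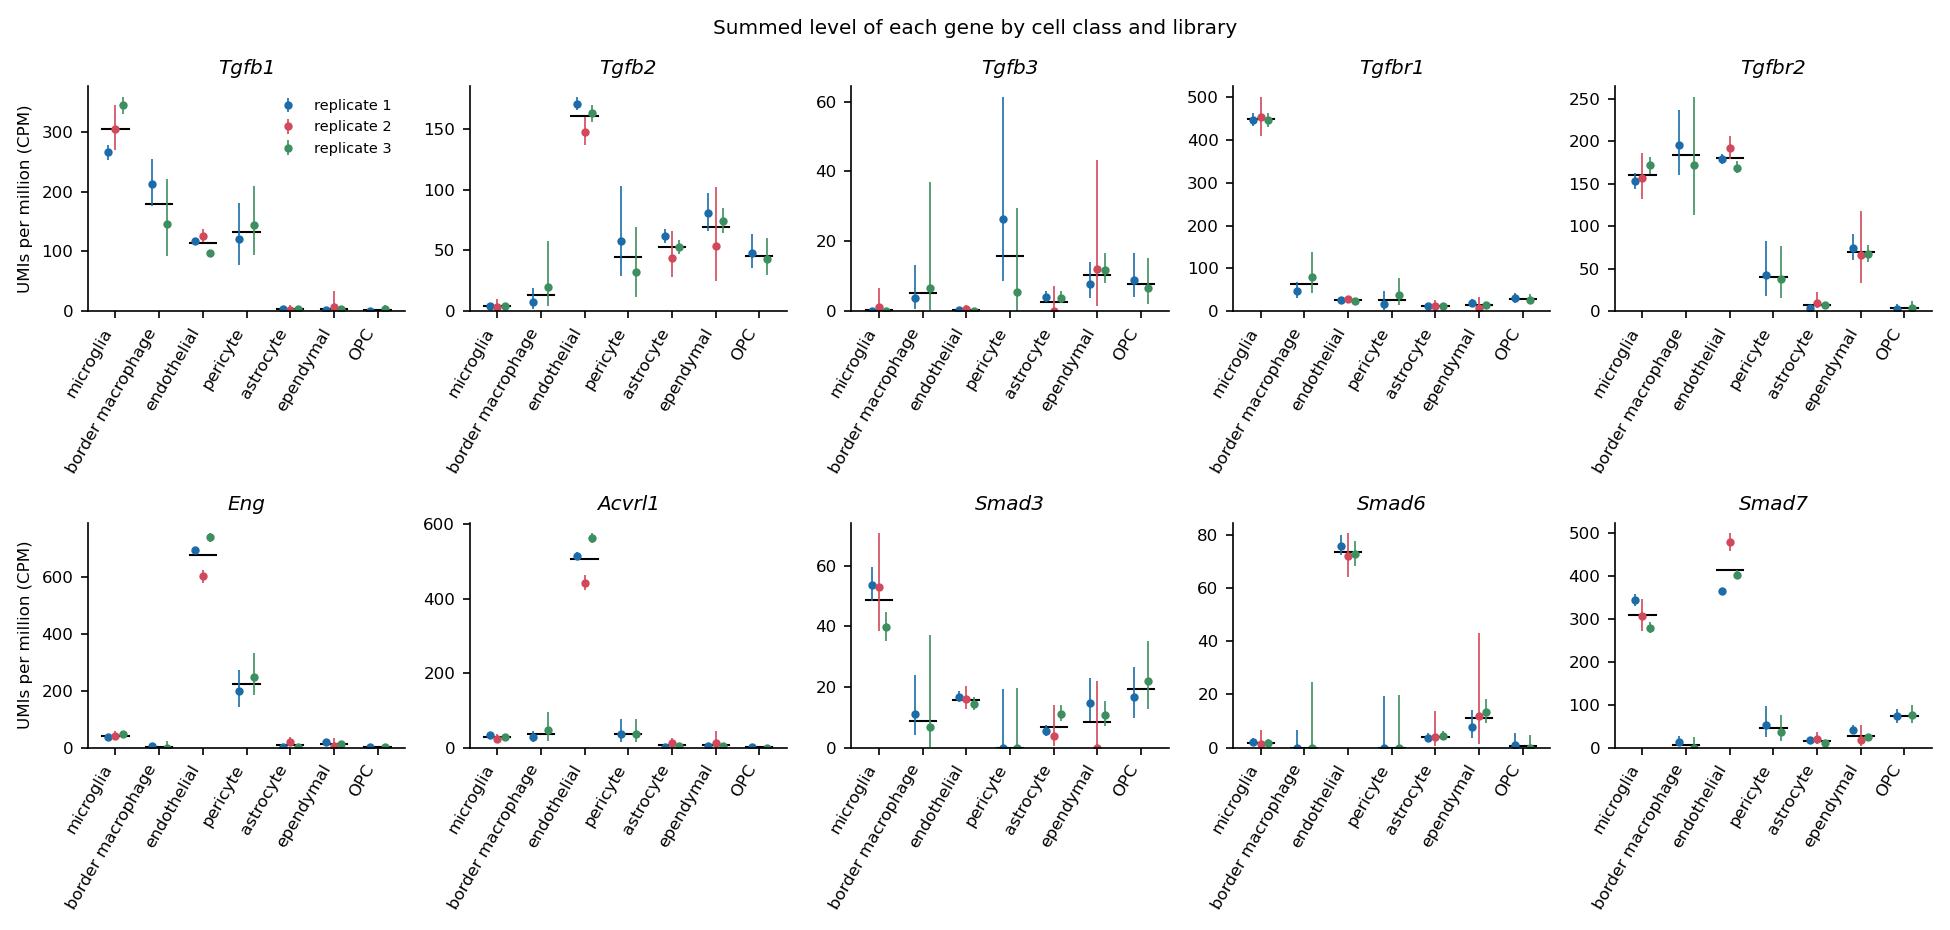
Levels of the 10 genes in CPM (vertical axes, linear, each from 0) by cell class; points are libraries, coloured by replicate, whiskers are 95% exact Poisson intervals of counting error and black bars the means. Eng, Acvrl1 and Smad6 stand out in endothelial cells, Tgfbr1 in microglia, and Smad7 in both; the whiskers of pericytes and border macrophages are wide because these classes hold 173 and 127 cells.

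Tgfbr1 (ENSMUSG00000007613.15, chr4:47353222-47414931, plus strand), the type I receptor of canonical Tgf-beta signalling, was a microglial transcript in these libraries. Its level in microglia was 448, 454 and 446 CPM in replicates 1 to 3, a spread of 3.99 CPM (SD, n = 3) around 449.5 CPM. Border macrophages held 45.8 and 79.6 CPM, and the highest library of any other class held 37.2 CPM. The microglial log2 change was 4.92 (SE 0.14, edgeR adjusted p = 4.61e-21). Border macrophages also held microglial markers at 16.5% of the microglial level, and the part of microglial RNA in their Tgfbr1 was not tested. Their level of 62.7 CPM was above the mean of logs of the other classes and below their plain mean of 92.4 CPM. The call as higher (0.89, SE 0.30, edgeR adjusted p = 0.0276) was lost without replicate 1 (edgeR adjusted p = 0.139) and without replicate 3 (edgeR adjusted p = 0.140). It was also lost with no filter on low counts (edgeR adjusted p = 0.0913) and at 1000 UMIs per cell (edgeR adjusted p = 0.632).

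Endothelial cells held Tgfbr1 at 26.2, 28.3 and 23.4 CPM, and their change was not past the threshold (-0.38, SE 0.18, edgeR adjusted p = 0.0930). Astrocytes (12.7, 11.5 and 11.1 CPM), ependymal cells (18.4, 5.98 and 14.3 CPM) and OPC (29.3 and 25.9 CPM) were called lower than the mean of the others, the OPC call being lost without replicate 3 (edgeR adjusted p = 0.0597). Thinned to 1000 UMIs per cell, these calls were lost in astrocytes (edgeR adjusted p = 0.0779), ependymal cells (edgeR adjusted p = 0.411) and OPC (edgeR adjusted p = 0.272). A Tgfbr1 UMI was seen in 84.1%, 83.7% and 84.2% of microglia and in 4.38%, 4.88% and 6.77% of astrocytes, whose median depth was 3029.5 UMIs. At 1000 UMIs per cell the shares were 37.0%, 32.0% and 40.7% in microglia and 1.64%, 3.26% and 1.20% in astrocytes.

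Tgfbr2 (ENSMUSG00000032440.13, chr9:116084293-116175360, minus strand), the type II receptor that binds ligand, was highest in endothelial and myeloid cells. Border macrophages held 196 and 172 CPM, endothelial cells 179, 192 and 169 CPM and microglia 153, 157 and 172 CPM in order of replicates. These 3 classes overlapped. Ependymal cells followed with 74.5, 65.7 and 67.5 CPM and pericytes with 42.1 and 37.2 CPM, while astrocytes (3.39 to 9.59 CPM) and OPC (2.93 and 3.89 CPM) were lowest.

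Tgfbr2 was called higher in microglia (log2 change 2.90, SE 0.17, edgeR adjusted p = 2.17e-14), endothelial cells (2.60, SE 0.17, edgeR adjusted p = 3.53e-13), border macrophages (2.67, SE 0.24, edgeR adjusted p = 1.22e-09) and ependymal cells (0.71, SE 0.21; 69.2 CPM where the plain mean of the others was 95.8). It was lower in astrocytes (-3.50, SE 0.32) and OPC (-4.81, SE 0.43). The ependymal call depended on which classes stood in the mean: among the 4 classes with 3 libraries its change was -0.00021 (edgeR adjusted p = 1.0), and without replicate 1 it was 0.58 (edgeR adjusted p = 0.0880). At 1000 UMIs per cell a Tgfbr2 UMI was seen in 15.2%, 14.4% and 17.7% of microglia, 15.7%, 19.7% and 15.0% of endothelial cells, and 0.313%, 0% and 0.664% of astrocytes.

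A cell answers canonical Tgf-beta with both receptors. UMIs of both Tgfbr1 and Tgfbr2 were found in 52.9%, 58.2% and 56.6% of microglia in replicates 1 to 3. The same held for 13.5%, 13.7% and 9.80% of endothelial cells and for at most 0.764% of astrocytes in any library. These shares rise with depth, and the median depth was 6513.5 UMIs in endothelial cells.

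**Figure D2:**
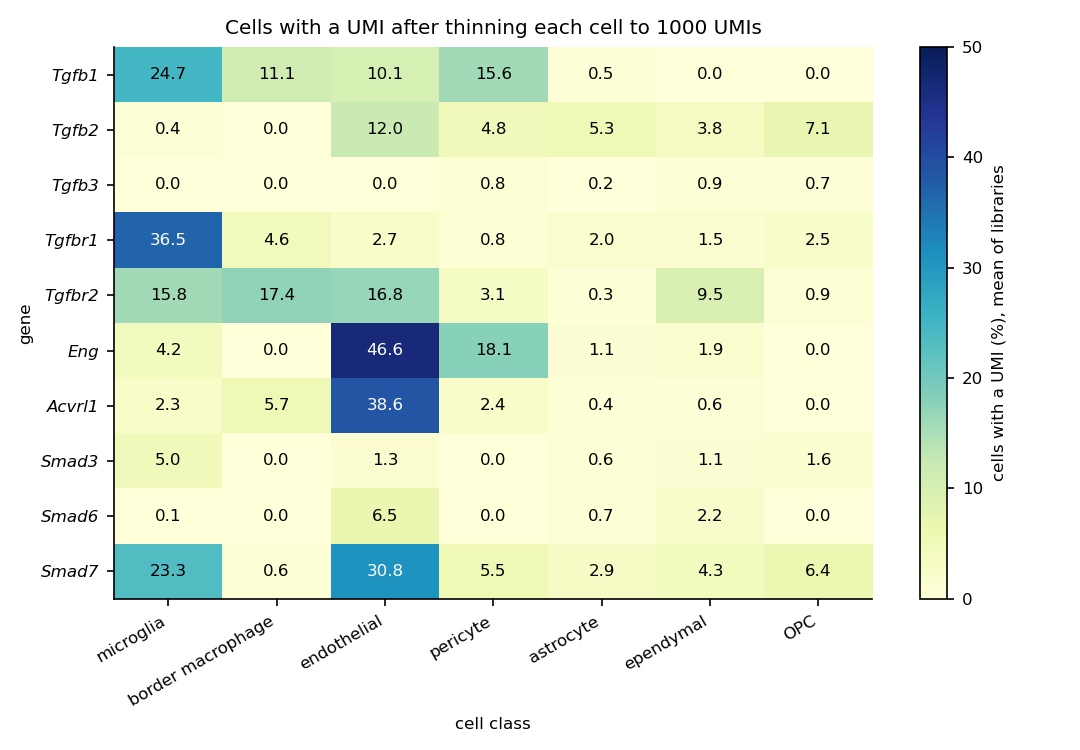
Share of cells with at least 1 UMI of each gene (rows) in each class (columns) after every cell was thinned to 1000 UMIs, in percent, as the mean of the libraries used; darker blue is a larger share. Eng reaches 46.6% and Acvrl1 38.6% of endothelial cells, Tgfbr1 36.5% of microglia, and Eng 18.1% of pericytes.

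Eng (ENSMUSG00000026814.16, chr2:32646595-32682669, plus strand) encodes endoglin, the accessory receptor of Acvrl1. Endothelial cells held 697, 603 and 741 CPM in replicates 1 to 3, and pericytes 199.9 and 249.8 CPM in replicates 1 and 3. Microglia held 36.3, 41.1 and 49.4 CPM, and the other classes lay between 0 and 21.1 CPM. Endothelial cells, pericytes and microglia were apart from one another in every library. Eng was higher in endothelial cells (log2 change 5.97, SE 0.22, edgeR adjusted p = 9.33e-19), in pericytes (3.50, SE 0.36, edgeR adjusted p = 1.65e-08) and, against the mean of logs, in microglia (1.80, SE 0.29, edgeR adjusted p = 7.85e-06). The microglial mean of 42.2 CPM was below the plain mean of the other classes, 155 CPM, and above their mean of logs in 2 of 3 libraries.

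The promoter of Eng is shown because its RNA followed the endothelial class and ETS factors are common regulators of endothelial genes. The RefSeq table (GRCm38.p6) gives a start site on chromosome 2, and the stretch from 100 bases before it to 12 bases after it, chr2:32646495-32646606 on the plus strand, reads 5′ to 3′, with the ETS core GGAA or its reverse complement in capitals:
Eng promoter: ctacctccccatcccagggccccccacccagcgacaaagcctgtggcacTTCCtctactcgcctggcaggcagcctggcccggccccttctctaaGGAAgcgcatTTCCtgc
Searched on both strands, the core occurs 3 times in these 112 bases, at positions -51 to -48, -5 to -2 and 6 to 9 from the start site. At least 2 occurrences were present in 37.2% of 32851 promoters of the table over the same 112 bases, and at least 1 in 71.2%. The share with 3 or more was not counted. Among the other members with an entry, Tgfbr2 also had 3 in this window, Smad3 2 and Tgfb1 1. Tgfbr1 had 0 or 2 by entry, and Tgfb2 and Smad6 had 0. A match is a description of the letters and shows no binding.

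Acvrl1 (ENSMUSG00000000530.16, chr15:101128522-101145336, plus strand), the type I receptor ALK1, stood at 516, 443 and 563 CPM in endothelial cells. Pericytes held 36.8 and 37.2 CPM, border macrophages 27.5 and 46.4 CPM and microglia 33.8, 23.5 and 28.6 CPM, and these 3 classes overlapped with their neighbours. Astrocytes, ependymal cells and OPC held 0 to 11.95 CPM. Its endothelial log2 change was 5.95 (SE 0.19, edgeR adjusted p = 3.21e-20). Against the mean of logs it was also called higher in microglia (1.67, SE 0.24, edgeR adjusted p = 1.61e-06) and border macrophages (1.29, SE 0.45, edgeR adjusted p = 0.0356). The latter call was lost without replicate 1 (edgeR adjusted p = 0.0847), without replicate 3 (edgeR adjusted p = 0.148) and at 1000 UMIs per cell (edgeR adjusted p = 0.0966). The microglial and border macrophage means, 28.6 and 36.9 CPM, were below the plain means of the other classes, 99.2 and 97.8 CPM. The pericyte value was 0.88 (SE 0.51, edgeR adjusted p = 0.283). Eng and Acvrl1 were called lower in astrocytes, both lost without replicate 1 (log2 changes -1.03 and -1.28), and in OPC. Eng was also called lower in border macrophages, from 3 UMIs and 0 UMIs (edgeR adjusted p = 0.0348), a call also lost by DESeq2 (adjusted p = 0.0643), without replicate 3 (edgeR adjusted p = 0.0592), with 5 or more markers (edgeR adjusted p = 0.0554), with a stricter cell filter (edgeR adjusted p = 0.111) and at 1000 UMIs per cell. Acvrl1 was called lower in ependymal cells. Without replicate 1 these calls and that of Eng in OPC were lost too. In that fit border macrophages and OPC were left with replicate 3 alone. Eng had no UMI in these border macrophages and Acvrl1 none in these OPC, and the part of this in the lost calls was not tested.

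Eng and Acvrl1 UMIs were found together in 84.7%, 70.1% and 80.2% of endothelial cells. In pericytes the pair was found together in 2.60% and 5.06% of cells of replicates 1 and 3, although Eng alone was seen in 39.0% and 43.0% of them. At 1000 UMIs per cell Eng was seen in 47.0%, 43.1% and 49.8% of endothelial cells, 21.0% and 15.2% of pericytes and 0% of OPC in both libraries.

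The levels outside the endothelial class were set beside those of endothelial markers. Pericytes held Eng at 33.1% of its endothelial level, Acvrl1 at 7.30%, the 10 endothelial markers at 3.04% and 10 other endothelial genes, chosen after values were seen, at 1.71%. Microglia held Eng at 6.21%, Acvrl1 at 5.64% and the markers at 0.882%. In cells without a UMI of any of the 10 endothelial markers, a choice also made after seeing the data, Eng stood at 176 CPM in 28 pericytes of replicate 1 (9 UMIs, 95% exact Poisson interval 80.4 to 334) and 362 CPM in 20 pericytes of replicate 3 (12 UMIs, 187 to 632). These pericytes had a median depth of 1487 and 1485.5 UMIs, against 2377 and 2179 in all pericytes of replicates 1 and 3. Fewer UMIs also leave fewer markers detected. Fibroblasts of these libraries held Eng at 159 CPM, and the part of their RNA in the pericyte value was not tested. In such microglia it stood at 34.4, 50.3 and 53.1 CPM (433, 15 and 364 cells), and Acvrl1 at 29.0, 0 and 29.8 CPM. In astrocytes of replicate 2 Eng stood at 21.1 CPM, against 3.54 and 3.42 CPM in the other libraries, and the endothelial marker level of astrocytes ran from 108 to 455 CPM over the libraries. Its part in the astrocyte value was not tested.

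**Figure D3:**
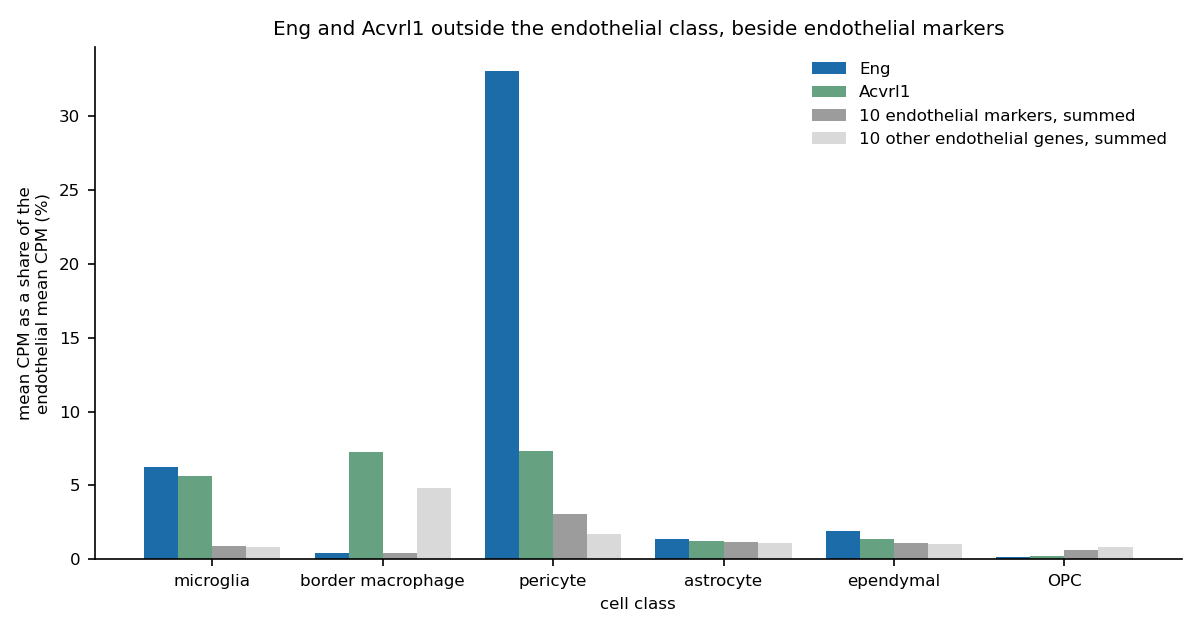
Mean CPM of Eng, Acvrl1, the 10 endothelial markers and 10 other endothelial genes in each class outside the endothelial one, as a percentage of the endothelial mean (vertical axis from 0). In pericytes Eng stands at 33.1% and the markers at 3.04%; in astrocytes, ependymal cells and OPC all 4 bars are at or under 1.88%.

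Smad3 (ENSMUSG00000032402.12, chr9:63646767-63757994, minus strand), the mediator that carries the canonical signal to the nucleus, was highest in microglia, with 53.6, 52.8 and 39.7 CPM in replicates 1 to 3. OPC held 16.6 and 22.0 CPM and endothelial cells 16.8, 16.1 and 14.4 CPM, and both lay below every microglial library. Pericytes held no Smad3 UMI in either library, where 3 counts would be 15.8 and 15.9 CPM. Microglia therefore held at least 6.14-fold the Smad3 of pericytes, with the floor of 3 counts taken over both pericyte libraries (7.93 CPM).

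The test called Smad3 higher in microglia (edgeR adjusted p = 2.96e-11) and endothelial cells (edgeR adjusted p = 0.0275) and lower in pericytes (edgeR adjusted p = 0.0269). Its fitted changes rest on the pericytes at 0 and are not printed for this reason. With such a class set to the floor of 3 counts, the log2 difference of summed, TMM-scaled levels was 2.75 in microglia and 0.40 in endothelial cells. Among the 4 classes with 3 libraries, the endothelial change was 0.0043 (edgeR adjusted p = 0.997). That call was also lost by RLE (edgeR adjusted p = 0.111), by DESeq2 (adjusted p = 0.126) and without replicate 1 (edgeR adjusted p = 0.176). The pericyte call was lost without replicate 1 (edgeR adjusted p = 0.182) and without replicate 3 (edgeR adjusted p = 0.0751).

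Smad6 (ENSMUSG00000036867.7, chr9:63953076-64022059, minus strand), an inhibitory Smad that acts mostly on BMP and Acvrl1 signals, was an endothelial transcript with 75.9, 72.0 and 72.7 CPM. Ependymal cells held 7.68, 11.95 and 13.2 CPM, astrocytes 3.69, 3.84 and 4.23 CPM and microglia 2.05, 1.17 and 1.82 CPM. No Smad6 UMI was found in border macrophages or pericytes of the libraries used. Endothelial cells held at least 17.1-fold the Smad6 of border macrophages and at least 9.27-fold that of pericytes, with floors of 4.30 and 7.93 CPM over the libraries of each class. The endothelial call (edgeR adjusted p = 9.23e-17) had a log2 difference of 4.62 with the empty classes at that floor. The ependymal call (edgeR adjusted p = 0.000106) had 1.19 at the floor (10.9 CPM where the plain mean of the others was 13.3) and was lost among the 4 classes with 3 libraries (0.08, edgeR adjusted p = 0.803).

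The promoter of Smad6 is shown because it holds a palindrome that Smad proteins are known to bind. Over 100 bases before and 12 after the RefSeq start site (GRCm38.p6), chr9:64022048-64022159 on the minus strand, it reads 5′ to 3′, with the Smad palindrome GTCTAGAC in capitals:
Smad6 promoter: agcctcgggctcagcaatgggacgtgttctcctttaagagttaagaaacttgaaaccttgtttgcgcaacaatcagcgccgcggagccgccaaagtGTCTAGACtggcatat
The palindrome, which is its own reverse complement, spans positions -4 to 4. It was found in 70 of the 32851 promoters of 300 bases (0.213%) and in 0.0609% over the same 112 bases. Of the 10 genes, 7 had an entry in the table, and the palindrome was in Smad6 alone among these 7.

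Smad7 (ENSMUSG00000025880.11, chr18:75367529-75395935, plus strand), the inhibitory Smad that blocks Tgfbr1, was high in 2 classes. Endothelial cells held 364, 478 and 402 CPM and microglia 343, 307 and 278 CPM in replicates 1 to 3, with no overlap in plain CPM. TMM moved the log2 changes by 0.69 in microglia and 0.20 in endothelial cells against plain CPM. These 2 classes were not tested against each other. OPC held 72.3 and 76.5 CPM, pericytes 52.6 and 37.2 CPM, ependymal cells 40.7, 17.9 and 23.5 CPM, and astrocytes 17.7, 19.2 and 11.6 CPM. Border macrophages held 12.8 CPM (7 UMIs) in replicate 1 and none in replicate 3. Smad7 was called higher in microglia (log2 change 3.54, SE 0.17, edgeR adjusted p = 2.95e-16) and endothelial cells (3.54, SE 0.17, edgeR adjusted p = 4.25e-16), and lower in border macrophages (-2.78, SE 0.48, edgeR adjusted p = 5.29e-05), astrocytes (-2.25, SE 0.26) and ependymal cells (-1.18, SE 0.26). Without replicate 1 the astrocyte and ependymal calls were lost, at log2 changes of -0.92 and -0.16. The border macrophage profile left in that fit held no Smad7 UMI, and the part of this was not tested. At 1000 UMIs per cell a Smad7 UMI was seen in 28.1%, 16.5% and 25.4% of microglia, 28.6%, 34.6% and 29.1% of endothelial cells, and 1.25% and 0% of border macrophages.

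The UMIs captured also depend on how many cells of a class were captured. Endothelial cells, 4834 of the 10605 cells in the 7 classes, gave 97.0% of the UMIs of Eng, 97.4% of Acvrl1, 95.7% of Smad6, 83.6% of Tgfb2, 75.3% of Smad7 and 70.6% of Tgfbr2. Microglia gave 83.0% of the UMIs of Tgfbr1. The UMIs of Tgfb1 were divided between microglia (48.9%) and endothelial cells (48.1%), and the microglial share was 40.7%, 32.0% and 62.6% in replicates 1, 2 and 3. Those of Smad3 were divided in the same manner, at 45.2% and 41.3%. For Tgfb3 astrocytes gave 47.4%, 0% and 37.1% and ependymal cells 17.5%, 28.6% and 51.6% in replicates 1, 2 and 3. Papain digestion and myelin removal can change these cell numbers, so the shares describe the libraries and not the tissue.

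**Figure D4:**
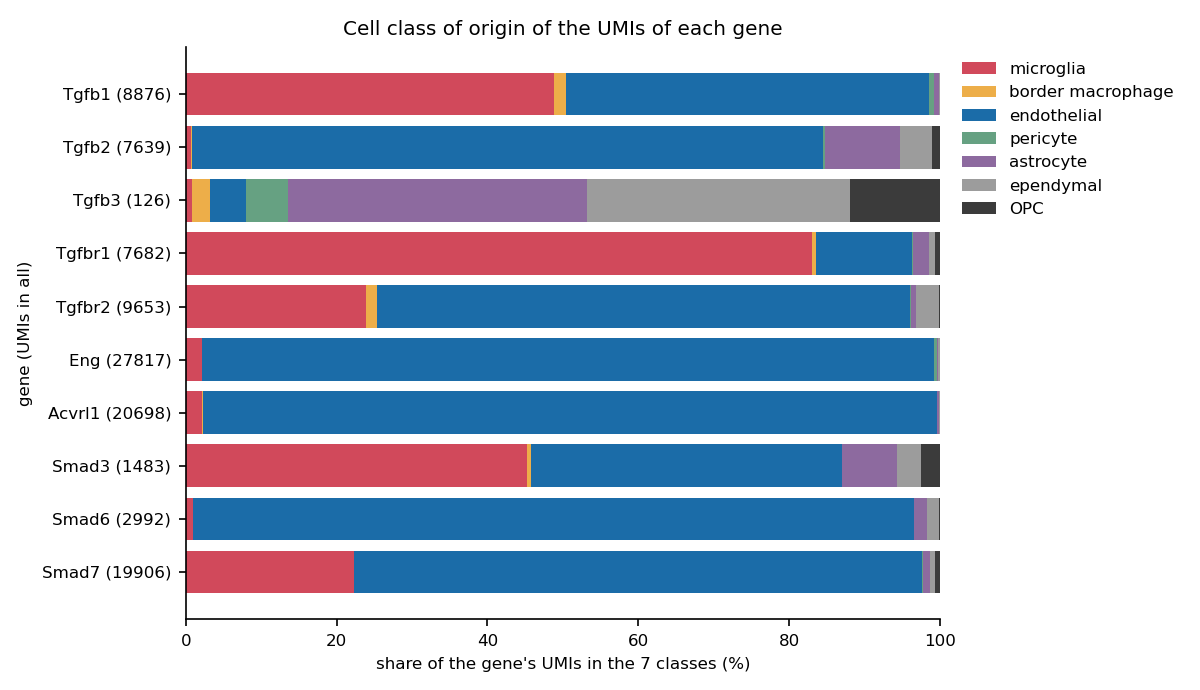
Share of the UMIs of each gene, in percent, that came from each of the 7 classes, pooled over the 3 libraries; the number of UMIs is given beside each gene. Endothelial cells supply 97.0% of Eng, microglia 83.0% of Tgfbr1, and Tgfb3, with 126 UMIs, comes to 39.7% from astrocytes and 34.9% from ependymal cells, an order that differs between libraries.

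Counted over the 10 genes, endothelial cells and microglia were the classes with the most higher calls. In endothelial cells 8 were higher and 1 (Tgfb3) lower, where 31.8% of all genes tested were higher and 13.9% lower. In microglia 7 were higher and 2 lower (Tgfb2 and Tgfb3), against 32.2% and 14.4% of all genes. The median log2 change of the members was 2.73 in endothelial cells, where that of all genes was 0.14, and 2.35 in microglia (2.27 with empty classes at the floor), where that of all genes was also 0.14. In border macrophages 4 were higher and 3 lower, against 13.5% and 10.6% of all genes, with a member median of 0.89 (0.39 at the floor) and -0.40 over all genes. Without replicate 1 only 2 were higher and 1 lower there, and without replicate 3 only 2 were higher. In pericytes 2 were higher, Tgfb1 and Eng, and 1 lower, against 9.28% and 6.92%. All 10 genes passed the filter on low counts.

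In astrocytes 1 gene (Tgfb2) was higher and 6 were lower, against 29.2% and 20.0% of all genes, with a median of -2.09 where all genes had 0.08. The count of lower genes was 3 without replicate 1. Eng, Acvrl1 and Smad7, the genes lost, each had a class with no UMI in that fit, and the part of this was not tested. In ependymal cells 4 were higher and 4 lower, against 32.2% and 18.2%, with a median of -0.01 (-0.58 at the floor) where all genes had 0.12. In OPC none was higher and 5 were lower, against 25.7% and 17.0%, and the median was -1.39 (-2.67 at the floor) where all genes had 0.07.

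The split of all calls moved with the scaling, and so did the medians of all genes. Of the genes called in microglia, 69.1% were higher by TMM, 54.7% by RLE and 42.6% by DESeq2, with medians over all genes of 0.14, -0.13 and -0.28. For endothelial cells these shares were 69.6%, 54.3% and 39.7%, for border macrophages 56.0%, 62.9% and 71.5% and for pericytes 57.3%, 71.1% and 77.1%. For endothelial cells against pericytes they were 64.8%, 46.2% and 38.8%, and for microglia against border macrophages 75.6%, 54.2% and 47.0%. With only the 4 classes of 3 libraries in the mean, the share of calls that were higher was 46.0% in microglia, 53.6% in endothelial cells and 50.6% in ependymal cells (63.8% over all classes).

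Endothelial cells and pericytes, the wall cells of the capillary, differed in 8 members. Higher in endothelial cells were Acvrl1 (log2 change 4.34, SE 0.40, edgeR adjusted p = 1.54e-09), Smad7 (3.73, SE 0.38, edgeR adjusted p = 9.17e-09), Tgfbr2 (2.71, SE 0.38, edgeR adjusted p = 2.48e-06), Tgfb2 (2.47, SE 0.31, edgeR adjusted p = 3.19e-07), Eng (2.11, SE 0.35, edgeR adjusted p = 3.41e-05), Smad6 and Smad3, the last lost without replicate 1 (edgeR adjusted p = 0.109). Tgfb3 was the 1 lower gene, from 6 pericyte UMIs, and it was lost without replicate 1 (edgeR adjusted p = 0.331). The smooth muscle marker values of pericytes and endothelial cells, given with Tgfb3, stand beside this call as well. Tgfb1 (0.28, SE 0.32, edgeR adjusted p = 0.600) and Tgfbr1 (0.50, SE 0.44, edgeR adjusted p = 0.490) did not pass. Of all genes, 15.9% were higher and 8.61% lower, and their median change was 0.45.

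Microglia and border macrophages, the myeloid cells of the parenchyma and of the brain's borders, differed in 5 members, all higher in microglia. These were Smad7 (5.41, SE 0.45, edgeR adjusted p = 8.68e-10), Tgfbr1 (3.45, SE 0.29, edgeR adjusted p = 1.52e-09), Eng (3.66, SE 0.75), Smad3 (2.69, SE 0.57) and Tgfb1 (1.12, SE 0.28, edgeR adjusted p = 0.00538). The last was lost by DESeq2 (0.79, adjusted p = 0.132) and without replicate 3 (edgeR adjusted p = 0.114), and Smad3 without replicate 1 (edgeR adjusted p = 0.107). Tgfbr2 (0.20, SE 0.26, edgeR adjusted p = 0.705) and Acvrl1 (0.32, SE 0.42, edgeR adjusted p = 0.702) did not pass. None was lower, where 11.6% of all genes were higher and 3.76% lower.

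Astrocytes and ependymal cells, both of which descend from radial glia, differed in 5 members, all lower in astrocytes. The largest change was that of Tgfbr2 (-3.61, SE 0.29, edgeR adjusted p = 3.37e-11), from 3.39, 9.59 and 6.84 CPM in astrocytes to 74.5, 65.7 and 67.5 CPM in ependymal cells. Eng (-1.61, SE 0.44), Smad6 (-1.45, SE 0.34), Smad7 (-0.92, SE 0.29) and Tgfb3 (-1.48, SE 0.58, edgeR adjusted p = 0.0341) changed by less. Without replicate 1 only 2 were lower, Tgfb3 was also lost without either other library, Smad6 was lost without replicate 3 (-1.08, edgeR adjusted p = 0.140), and DESeq2 called 3 (losing Eng and Tgfb3, adjusted p = 0.0744 and 0.0566). Of all genes, 23.1% were higher and 28.2% lower in astrocytes. The Tgfb2 ligand (-0.37, SE 0.19, edgeR adjusted p = 0.105) did not pass.

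Within the endothelial class, 277 cells carried arterial, 2736 capillary and 22 venous markers, and 1799 could not be placed. Arterial and capillary cells were compared in all 3 libraries over 9115 genes; Tgfb3 was too low to test. Smad6 stood at 220.0, 298 and 166 CPM in arterial cells and 52.9, 52.5 and 54.7 CPM in capillary cells of replicates 1, 2 and 3, higher in every library (log2 change 2.00, SE 0.15, edgeR adjusted p = 1.50e-08). Tgfb2 stood at 261, 343 and 278 CPM against 130.1, 108 and 106 CPM (1.31, SE 0.14, edgeR adjusted p = 1.10e-06). Both genes were more than their counting error apart in each library.

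Acvrl1 stood at 604, 578 and 703 CPM in arterial and 487, 403 and 527 CPM in capillary cells (0.41, SE 0.12, edgeR adjusted p = 0.0207). This smaller difference lost its call under 6 of the alternatives: without the replicate block (edgeR adjusted p = 0.278), by DESeq2 (adjusted p = 0.0696), with no filter on low counts (edgeR adjusted p = 0.0793), at 1000 UMIs per cell (0.08, edgeR adjusted p = 0.870), without replicate 1 (edgeR adjusted p = 0.114) and without replicate 3 (edgeR adjusted p = 0.148). Smad7 (0.30, SE 0.12, edgeR adjusted p = 0.0861), Eng (0.17, SE 0.13, edgeR adjusted p = 0.441), Tgfb1 (0.22, SE 0.15, edgeR adjusted p = 0.382) and Tgfbr2 (-0.07, SE 0.13, edgeR adjusted p = 0.791) did not pass. Nor did Tgfbr1 (-0.38, edgeR adjusted p = 0.336) and Smad3 (-0.32, edgeR adjusted p = 0.574). For Eng, the arterial level was above the capillary level by more than counting error in replicate 2 alone (922 against 597 CPM). Of 9 members tested, 3 were higher and none lower, where 9.82% of all genes were higher and 8.55% lower. Summed smooth muscle markers ran from 882 to 1038 CPM in arterial and 679 to 843 CPM in capillary cells, and their part in these differences was not tested. Tgfb3, which smooth muscle cells of these libraries held at 112 CPM, had 1 UMI in all arterial cells.

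**Figure D5:**
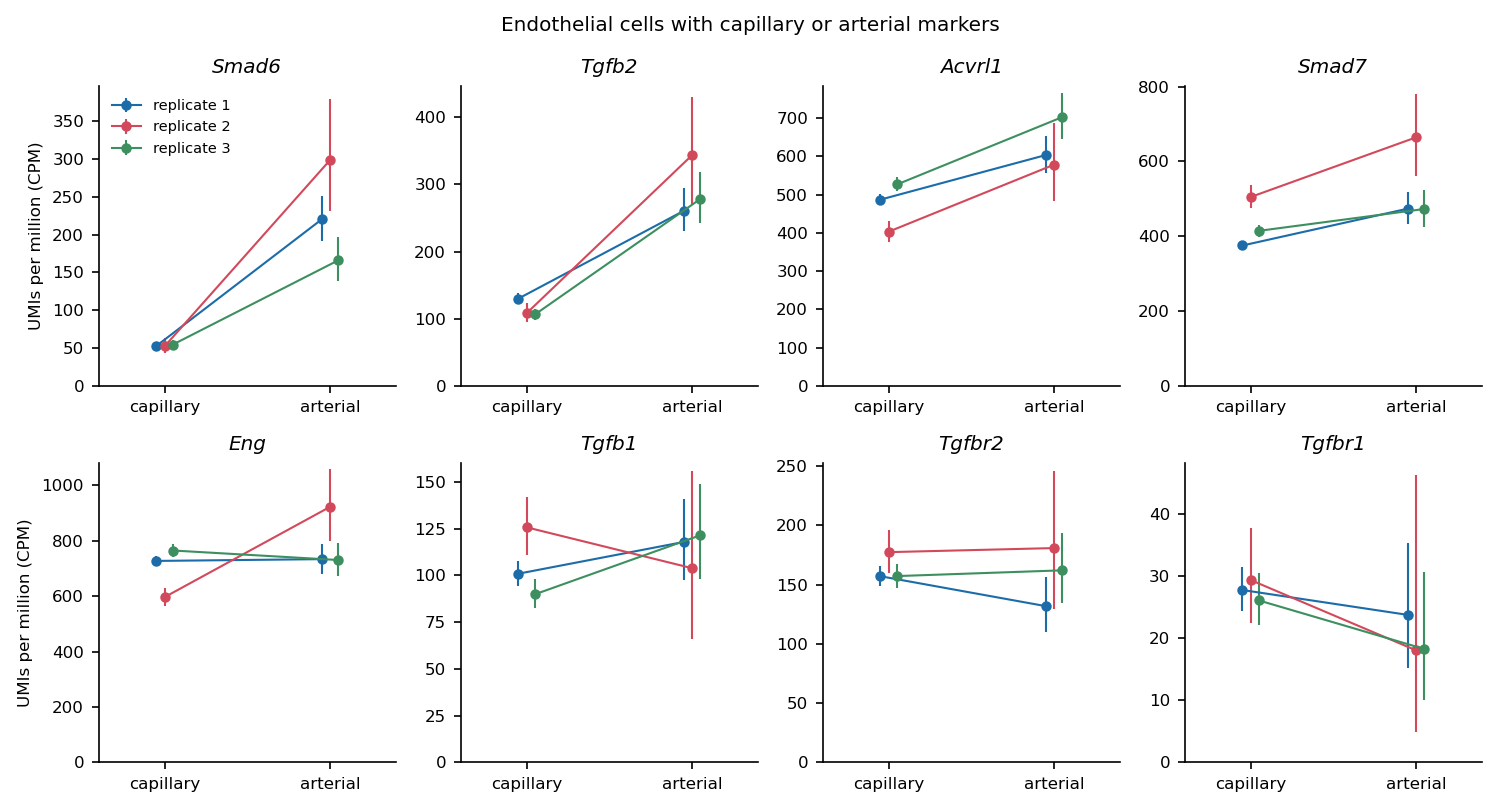
Levels in CPM (vertical axes from 0) in endothelial cells with capillary or arterial markers; lines join the values of a library and whiskers are 95% exact Poisson intervals of counting error. Smad6 and Tgfb2 rise to the arterial side in each library, Acvrl1 and Smad7 by less, Tgfbr1 falls by less than its whiskers, and Eng, Tgfb1 and Tgfbr2 show no common direction.

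The genes whose log2(CPM + 2) followed each member most closely over the 18 summed profiles were named as a description. The profiles share libraries and classes, so r carries no p. The closest to Eng was Tmem204 (Pearson r = 0.956), to Acvrl1 Kitl (0.947), to Smad6 Podxl (0.964), and to Tgfb2 Timp3 (0.9704). Tgfbr1 was closest to Bin2 (0.972) and Tgfb1 to Traf5 (0.959). Tgfbr2 was closest to Ucp2 (0.9697). Values were lower for Smad7 with Lrch1 (0.882), Smad3 with Ciart (0.861) and Tgfb3, with few UMIs, with Ociad2 (0.887). The next in order were Serinc3 and Mef2c for Tgfb1, Tnfrsf19 and Plscr4 for Tgfb2, Myo1g and Fam167b for Tgfbr1, Ctsh and Zfp36 for Tgfbr2, Sh2d3c and Mtus1 for Eng, Clec2d and Slfn5 for Acvrl1, and Slc2a1 and Hmcn1 for Smad6.

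Around the members, 7 lists of pathway genes with 93 genes in all were followed. Shares over all genes tested are given in brackets, higher before lower. Of 15 tested genes of latency and activation, 5 were higher and 5 lower in endothelial cells (31.8% and 13.9%), 7 and 4 in microglia (32.2% and 14.4%), 6 and 4 in astrocytes (29.2% and 20.0%) and 7 and 1 in pericytes (9.28% and 6.92%). The endothelial count of higher genes was near the share of all genes. Nrros, which tethers latent Tgf-beta on myeloid cells, stood at 126 ± 17.0 CPM (SD, n = 3) in microglia and 150.4 ± 3.01 CPM (SD, n = 2) in border macrophages. Lrrc32 (GARP), its counterpart on other cells, stood at 107 ± 53.3 CPM (SD, n = 3) in endothelial cells and, chosen after values were seen, 127 ± 51.4 CPM (SD, n = 2) in pericytes. Ltbp4, a latent Tgf-beta binding protein of the matrix, stood at 573 ± 163 CPM in endothelial cells. Itgb8, whose integrin releases latent Tgf-beta, stood at 191 ± 24.6 CPM in astrocytes (log2 change 4.11, SE 0.21, edgeR adjusted p = 1.03e-15), and, chosen after values were seen, 179.8 ± 63.7 CPM (SD, n = 2) in OPC. Thbs1, another activator, stood at 264 ± 141 CPM in ependymal cells, and Fbn2, a fibrillin of the matrix that holds latent ligand, at 20.8 ± 7.27 CPM in OPC.

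Of 12 other ligands of the superfamily tested, 7 were higher and 2 lower in OPC (25.7% and 17.0%), 6 and 1 in astrocytes (29.2% and 20.0%), 5 and 1 in ependymal cells (32.2% and 18.2%) and 3 and 1 in pericytes (9.28% and 6.92%). In microglia 2 were higher and none lower (32.2% and 14.4%), in border macrophages 2 and none (13.5% and 10.6%), and in endothelial cells none was higher and 2 were lower (31.8% and 13.9%). Border macrophages held Bmp2 at 384 ± 28.5 CPM (SD, n = 2), and pericytes held Nodal at 256 ± 31.8 CPM, with at most 0.182 CPM in the mean of any other class. Pericytes also held Bmp4 at 114 ± 27.0 CPM and Bmp5 at 58.1 ± 22.0 CPM. Ependymal cells held Bmp6 at 93.2 ± 8.33 CPM (SD, n = 3). Gdf15, a stress-induced member, stood at 2064 ± 1161 CPM in microglia, and Bmp4 at 122 ± 117 CPM in OPC, so both varied widely between libraries. Bmp7 stood at 48.6 ± 21.1 CPM in OPC. Among receptors, 5 of 8 accessory receptors were higher in endothelial cells and none lower (31.8% and 13.9%, median 1.17). Of 7 BMP and activin receptors 2 were higher and 1 lower there, and 3 and 2 in astrocytes (29.2% and 20.0%). Cd109, a co-receptor that restrains Tgf-beta signals, stood at 138 ± 17.6 CPM in ependymal cells. Neither Gdf2 (BMP9) nor Bmp10, the ligands of Acvrl1, passed the filter on low counts.

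Of 18 other Smads and Smad regulators, 11 were higher and none lower in endothelial cells (31.8% and 13.9%, median 0.58), 11 and 3 in microglia (32.2% and 14.4%, median 0.72), and 1 and 8 in astrocytes (29.2% and 20.0%, median -0.43). Of 12 genes that Tgf-beta is known to induce, 11 were higher in endothelial cells and none lower (31.8% and 13.9%), with a median log2 change of 3.65 where all genes had 0.14. Fn1, fibronectin, stood at 1022 ± 171 CPM there. In ependymal cells 8 were higher and 2 lower (32.2% and 18.2%), in pericytes 3 and 1 (9.28% and 6.92%), in border macrophages 1 and 4 (13.5% and 10.6%), in astrocytes 2 and 6 (29.2% and 20.0%) and in OPC 1 and 7 (25.7% and 17.0%). Tgfbi, a matrix protein named for its induction by Tgf-beta, stood at 316 ± 6.12 CPM in border macrophages. In microglia 4 of these 12 were higher and 7 lower (32.2% and 14.4%), with a median of -1.37. Of 9 tested BMP-responsive genes, 8 were higher in astrocytes and none lower (29.2% and 20.0%), among them Id4 at 821 ± 151 CPM (4.76, SE 0.18, edgeR adjusted p = 1.91e-18). Bmpr1b, from the list of BMP and activin receptors, stood at 115 ± 29.2 CPM in astrocytes. In ependymal cells 6 of the 9 BMP-responsive genes were higher and 1 lower (32.2% and 18.2%). Their median log2 change was 2.46 there and 1.78 in astrocytes (1.26 and 0.84 with empty classes at the floor). Astrocytes against ependymal cells had 2 of them higher and 2 lower (23.1% and 28.2%). In endothelial cells 5 BMP-responsive genes were higher and 2 lower (31.8% and 13.9%). Many of these genes also answer other signals, and which signal moved them was not tested.

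In arterial against capillary cells, 5 of 8 BMP-responsive genes tested were higher and none lower, and 5 of 8 genes of latency and activation were higher and none lower (9.82% and 8.55% of all genes). The other lists did not share this rise. Of 11 Tgf-beta-responsive genes 1 was higher and 2 lower, and of 17 other Smads and regulators 2 and 3. Of 6 accessory receptors none was higher and 2 were lower. Of 5 BMP and activin receptors 1 was higher and none lower, and the 1 other ligand tested was not called. The following genes were chosen after their values were seen. Tmem100, a target of Acvrl1, stood at 104 ± 60.1 CPM in arterial and 5.52 ± 2.26 CPM in capillary cells (log2 change 4.51, SE 0.24, edgeR adjusted p = 2.24e-10). Lrrc32 stood at 414 ± 144 against 40.6 ± 27.2 CPM (3.51, SE 0.21, edgeR adjusted p = 7.94e-10). Tgfbr3, betaglycan, which presents Tgfb2 to its receptors, was lower in arterial cells, at 27.3 ± 2.64 against 79.1 ± 8.61 CPM (-1.55, SE 0.20, edgeR adjusted p = 1.39e-05). In bulk and in summed single-cell profiles alike, fewer molecules per cell and a different mix of cells within a class cannot be told apart.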

How the data were processed

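Single-cell RNA-seq libraries of aged mouse hippocampus were read as the filtered matrices of UMI counts that the authors deposited, unnormalized, 1 per library. The submitters' processing notes name Cell Ranger, with no version, and the build mm10. The 10 genes, the markers and the pathway lists were chosen with earlier results of these data known. Of 7241, 1062 and 6456 barcodes in replicates 1, 2 and 3, those with at least 500 UMIs, 300 genes and at most 20% mitochondrial UMIs were kept, and 172, 9 and 135 doublets marked by Scrublet (scanpy 1.11.5, expected rate 0.06) were left out. A cell joined a class when at least 3 of its 10 markers had a UMI and no other list reached more than 0.5 of that number. Such names are rebuilt from markers and are not the authors' annotation.

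Where a class had 20 or more cells in a library, their UMIs were added up, and the resulting 18 profiles were fitted with edgeR 4.0.16 (R 4.3.3; TMM, filterByExpr, glmQLFit and glmQLFTest, Benjamini-Hochberg over all genes tested), with library as a block, since profiles with the same replicate number come from 1 library. Arterial and capillary cells, set by at least 2 zone markers, were fitted the same way over 6 profiles with 2 residual degrees of freedom. The venous comparison was not fitted, since every library held under 20 venous cells. The fit was also run on simulated counts in which all classes shared a base profile, apart from genes raised in endothelial cells. That run does not cover classes that differ widely or hold no UMI of a gene, as in these data. Of the pathway lists, the 3 genes per class with the largest log2 rise were named, among those past the threshold, higher in every library and at 20 CPM or more. One such gene is not reported here. Likeness to a member was the Pearson correlation of log2(CPM + 2) over the 18 profiles, among 10486 genes that are no markers and reach 20 CPM in a class. Alternatives were DESeq2 1.42.0, RLE scaling, no filter on low counts, no block, stricter and looser marker and cell rules, doublets kept, thinning, and each library left out. Those with 10 or more cells and with the 4 classes of 3 libraries were chosen after seeing the data. Levels at 0 were set to a floor of 3 counts where a bound is given.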

Additional observations from a re-analysis of the deposited data

Results flagged for a closer look

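Tgfb3 had a clear level in cells that the class comparisons do not use. In 36 cells with smooth muscle markers it stood at 112 CPM (22 UMIs in 13 cells, 95% exact Poisson interval 70.1 to 169), while the highest mean of the 7 classes was 15.8 CPM, in pericytes. By library it was 123 CPM (18 UMIs) in replicate 1 and 80.4 CPM (4 UMIs) in replicate 3, and replicate 2 held 1 such cell with none. The same cells held Smad7 at 285 CPM, Tgfb2 at 142 CPM, Eng at 45.8 CPM (9 UMIs) and no Acvrl1 UMI. Their Smad7 differed by library, at 355 CPM (52 UMIs) in replicate 1 and 80.4 CPM (4 UMIs) in replicate 3. No test was made, since only replicate 1 held 20 or more of these cells.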

How the results depend on the processing

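Of the counts of members called, 261 stayed within 1.5 times of the reported value under the alternatives and 33 did not. Of the single member calls, 848 were kept, 73 lost their call and 1 turned direction. The last was Tgfbr2 in ependymal cells, at -0.00021 among the 4 classes with 3 libraries. Thinning to 1000 UMIs per cell lost 21 member calls and kept 38. At 1000 UMIs per cell, with 6869 genes and 8 members tested, lower calls were 0 in microglia, endothelial cells, pericytes and ependymal cells and in endothelial cells against pericytes, and 2 in astrocytes and OPC; higher calls were 2 in border macrophages and 1 in ependymal cells; astrocytes against ependymal cells had 1 higher and 1 lower. Endothelial cells had 2 lower calls by RLE, by DESeq2, with 2 or more markers and among the 4 classes, where astrocytes and ependymal cells each had 2 higher. Microglia against border macrophages had 1 lower by DESeq2, with no filter and with 10 or more cells, and astrocytes against ependymal cells 3 lower by DESeq2. Leaving out a library in turn gave 2 to 4 higher and 1 to 3 lower in border macrophages, 0 to 1 lower in pericytes, 1 to 2 higher and 3 to 6 lower in astrocytes, 2 to 4 lower in ependymal cells, 0 to 1 higher in OPC, 0 to 1 lower in endothelial cells against pericytes, 0 to 1 lower in microglia against border macrophages and 2 to 4 lower in astrocytes against ependymal cells. Thinned cells and fits with a library left out hold fewer counts, and in some of these fits a class held no UMI of a member. The cause of these changes was not tested under any alternative.

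Without the replicate block Acvrl1 in arterial against capillary cells had a log2 change of 0.42 (edgeR adjusted p = 0.278), and no other member call was lost. Pericytes, border macrophages and OPC rest on 2 libraries, and pericytes on few UMIs of each gene.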

Other observations

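Some cells carried markers of types outside the 7 classes and were too few for a test, so their values are given as counts of the libraries pooled. In 35 fibroblasts Eng stood at 159 CPM (35 UMIs) and Tgfbr2 at 132 CPM (29 UMIs), and Tgfb2 had no UMI among 220502. In 37 T or NK cells Smad7 stood at 214 CPM (37 UMIs) and Tgfb1 at 92.5 CPM (16 UMIs). In 17 B cells Tgfb1 stood at 240.0 CPM (11 UMIs). Oligodendrocytes, 7 cells, held Smad7 at 644 CPM (19 UMIs, all in 4 cells of replicate 3). Of 4338 UMIs in 2 platelet droplets, 5 were Tgfb1, the ligand that platelets are known to store. In 22 venous endothelial cells Eng stood at 353 CPM (24 UMIs), Acvrl1 at 309 CPM (21 UMIs) and Smad7 at 265 CPM (18 UMIs), while Smad6 had 3 UMIs and Tgfb2 had 5.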
